A study of Mus musculus with 7 samples.

Results

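The 300 most covered exon pieces of a sequencing experiment on macrophages and the vesicles they release are described here. An exon piece is a row of the count table that stands for 1 exon, or part of an exon, of 1 Ensembl transcript. The pieces were selected on their summed counts over all 7 libraries, and they are 300 of 210777 exon pieces and of 580839 rows in all. They belong to 246 transcripts. Since the sums chose them, their high coverage is not a result, and a piece with very many counts in 1 library could enter through that library alone.

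The cells were RAW264.7, an established mouse macrophage line. In all 7 groups they had received 1 µg/mL doxycycline. The hairpins were shNS, the control, or shDis3l2, against Dis3l2. RNA came from whole cells with shNS, whole cells with shDis3l2, extracellular vesicles (EVs) from cells with shNS, and EVs from cells with shDis3l2. A further 3 EV groups carried shDis3l2 with an addition: a vector with no insert (Vector), a hairpin-resistant Dis3l2 (Dis3l2r), or that Dis3l2 with the D389N change (D389N). Hairpin and transgene lines were not described as single clones or pools in the labels, and the empty vector, not EVs from shDis3l2 alone, was taken as the control of both transgenes. A sucrose gradient served to purify the EVs, and micrococcal nuclease then digested RNA outside them. Each library was made from 50 ng of RNA, which was depleted of rRNA for whole cells. Each group has 1 library, so no difference below was tested against the spread between replicates, and every interval covers counting error only. The label of the cell line and the level of Dis3l2 were not checked here, because transcript IDs were not paired with gene symbols.

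Dis3l2 is an exoribonuclease that degrades RNA from its 3′ end and prefers RNA with added uridines at that end. The D389N change is in its catalytic domain and is used as an inactive form. EVs are membrane-bound particles released by cells, and they carry mostly short and structured RNA next to fragments of messenger RNA. The libraries were made by template switching, in which a group II intron reverse transcriptase starts at the 3′ end of an RNA without needing a poly(A) tail. An estimated count of an exon piece can therefore come from whole messages, from fragments or from repeats with the same sequence. Where pieces share sequence, estimation divides a read between them, which leaves counts that are not whole numbers.

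Exon pieces were a small and uneven part of the libraries. They took 0.0375% of all counts in shNS cells (27300 counts) and 0.827% in shDis3l2 cells (555760 counts), a 22.0-fold difference in share. In the 5 EV libraries they took 0.713% to 1.23% (275220 to 389884 counts). The levels below are counts per 1000000 counts on exon pieces (CPM), unless another scale is named. This scale rests on few counts in shNS cells and on few pieces in shDis3l2 cells, so the same comparisons are given under 3 further scalings: without the 10 largest pieces, by TMM (a trimmed mean of ratios over exon pieces), and by the total of all rows.

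The 300 pieces held 28.5% of exon-piece counts in shNS cells and 88.6% in shDis3l2 cells. In EVs they held 40.1% with shNS, 34.3% with shDis3l2, 31.6% with Vector, 37.7% with Dis3l2r and 31.6% with D389N. Most of this spread came from the 10 largest pieces, which held 2.20% in shNS cells, 80.6% in shDis3l2 cells and 15.3% to 23.8% in EVs. The other 290 pieces held 26.3%, 7.99% and 14.4% to 19.0%. The median piece had 7.97 counts in shNS cells and 16.3 in shDis3l2 cells, against 103 to 139 in the EV libraries. In shNS cells 68 of the 300 pieces were at 0, and in shDis3l2 cells 25 were, while 1 to 11 were at 0 in the EV libraries. In ratios, a count of 0 was treated as up to 3 counts.

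**Figure D1:**
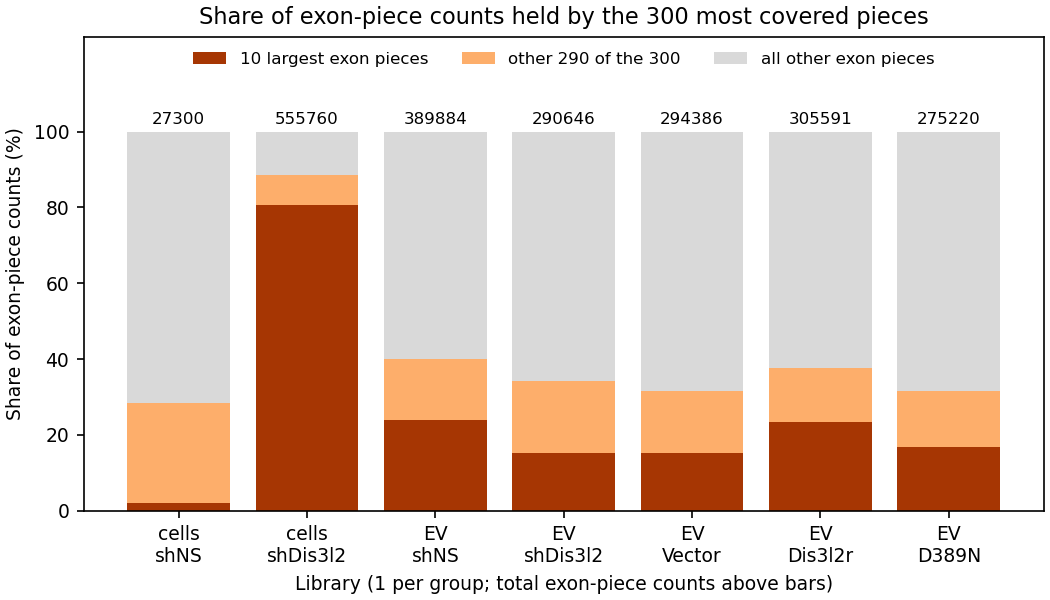
Share of exon-piece counts (vertical axis, %) in each of the 7 libraries held by the 10 largest pieces, by the other 290 of the 300 and by all other exon pieces, with total exon-piece counts above the bars. The 10 largest pieces hold 80.6% in shDis3l2 cells and 2.20% in shNS cells, while the EV libraries lie between 15.3% and 23.8%.

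The ranking had no break at rank 300. The last 3 pieces included were ENSMUST00000055322.5 with a sum of 366 counts, ENSMUST00000052185.4 with 365.0 and ENSMUST00000060253.4 with 364.966. The first 3 left out were ENSMUST00000035105.6_4 with 364.951, ENSMUST00000080813.4_2 with 361.5 and ENSMUST00000074267.4_4 with 360.4. Piece names are those of the table without the leading word Exon, and the number at its end is the table's own number of the piece. Choosing 300 pieces by their mean share of a library, which weights libraries equally, kept 266 of them.

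The pieces shared features that the rule did not use. In 100 of the 300 (33.3%) the piece was the only exon piece of its transcript. Among the 300 pieces ranked next this was 16.0%, among the 14995 exon pieces with at least 20 counts 7.66%, and among all exon pieces 6.25%. Counts were not whole numbers in at least 1 library for 225 pieces (75.0%), within a tolerance of 0.01. That share was 42.3% among the next 300 and 15.2% among pieces with at least 20 counts. A larger sum gives more chances for a divided read, so these shares are descriptions of pieces with unequal depth. Of the 200 members whose transcript has several exon pieces, 38 (19.0%) held over 90% of that transcript's exon counts, against 13.5% of such pieces among the next 300 and 7.19% among pieces with at least 20 counts.

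Over transcripts, 213 had 1 piece among the 300, 23 had 2, 2 had 3, 6 had 4, 1 had 5 and 1 had 6. The transcript with 6 of its 7 exon pieces among the members was ENSMUST00000042235.14. Its 6 pieces together had 159.0 counts in shNS cells, 190.4 in shDis3l2 cells, and in EVs 3247 with shNS, 2031 with shDis3l2, 1013 with Vector, 1323 with Dis3l2r and 1014 with D389N. It was followed by ENSMUST00000034966.8, with 5 of 9 pieces, which had 54.1 and 111 counts in the cell libraries and 493 to 927 in EVs. Both transcripts had more raw counts in each EV library than in either cell library, although the cell libraries were larger over all rows. ENSMUST00000178310.8 (4 of 4 pieces) had 76.9 and 112.2 counts in cells and 1176 to 1650 in EVs. ENSMUST00000235966.1 (4 of 4 pieces) had 138.0 and 183.0 in cells and 411 to 829 in EVs. These are raw counts, and all exon pieces had 27300 counts in shNS cells and 275220 to 389884 in EVs. As CPM, shNS cells lay above every EV library for ENSMUST00000235966.1. They lay above Vector, Dis3l2r and D389N EVs for ENSMUST00000042235.14, and above Vector EVs for ENSMUST00000034966.8. ENSMUST00000099683.1, also with 4 pieces, had the most counts of all, 372672. Unlike the transcripts above, it had more counts in shDis3l2 cells than in any EV library.

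The 10 largest pieces fell into sets with unlike profiles. A set of 7, from 5 transcripts, was lowest in shNS cells and highest in shDis3l2 cells among the 7 libraries. The largest, ENSMUST00000099683.1_3, had 39.3 counts in shNS cells and 93185 in shDis3l2 cells. In EVs it had 27485 with shNS, 12180 with shDis3l2, 13138 with Vector, 20813 with Dis3l2r and 12646 with D389N. ENSMUST00000099683.1_1 had 50.8 and 122154 counts in the cell libraries and 3805 to 13700 in EVs. ENSMUST00000099046.3_2 had 46.5 and 110746 in cells and 2715 to 7307 in EVs, and ENSMUST00000099047.3_2 had 25.9 and 57802 in cells and 9989 to 24679 in EVs. The other members of the set were ENSMUST00000099684.3_0, ENSMUST00000099683.1_4 and ENSMUST00000099049.3_2, with 31394, 23411 and 8998 counts in shDis3l2 cells. In shNS cells they had 19.6, 2.91 and 8.35 counts.

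Summed over the 7 pieces, the count was 193 in shNS cells and 447690 in shDis3l2 cells, and 35511 to 84836 in EVs. As CPM of all rows that is 2.66 in shNS cells, 6658 in shDis3l2 cells and 968 to 2610 in EVs, so the order of cells and EVs does not come from the exon scale. The 7 pieces made up 0.708% of exon-piece counts in shNS cells, 80.6% in shDis3l2 cells, 21.8% and 21.2% in the EV libraries with shNS and Dis3l2r, and 12.9%, 13.6% and 12.9% in those with shDis3l2, Vector and D389N. Both EV libraries with active Dis3l2 thus had the larger share. Counts of all 7 pieces were not whole, and how reads of repeated sequence were divided among them was not tested.

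**Figure D2:**
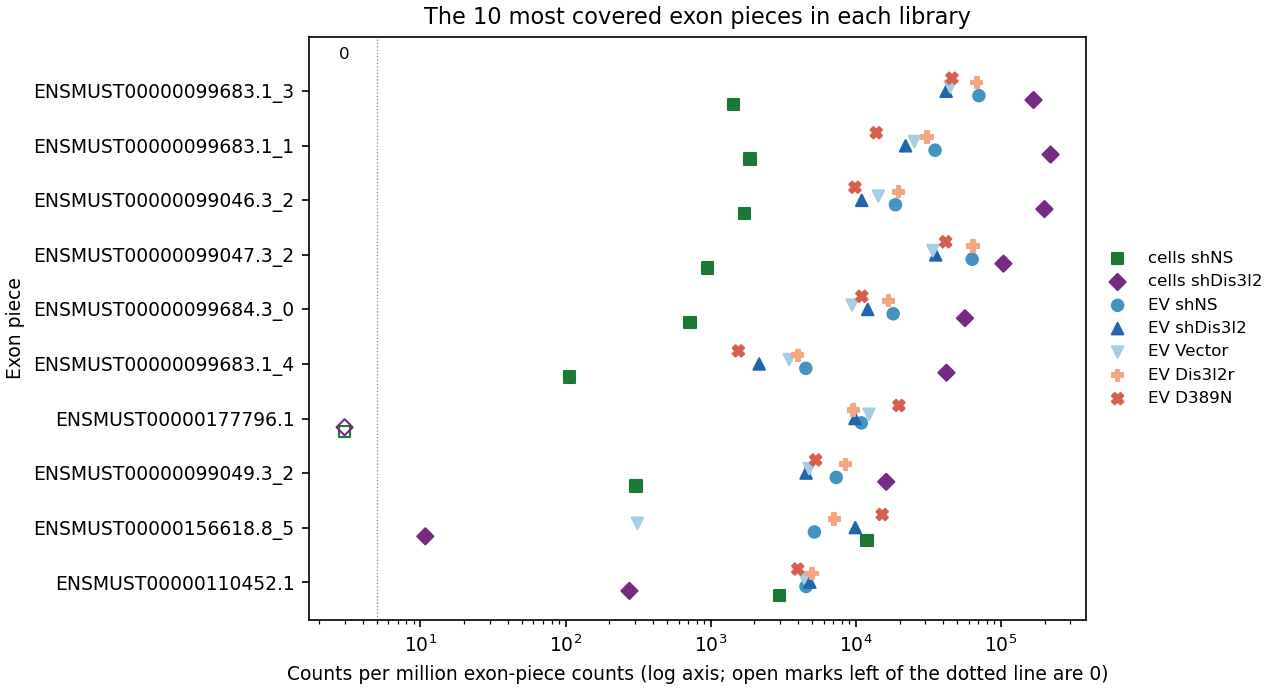
The 10 most covered exon pieces (vertical axis) in each of the 7 libraries, as CPM on a log axis, with open marks for a count of 0. For 7 pieces shDis3l2 cells lie above and shNS cells below all EV libraries, while ENSMUST00000177796.1 is at 0 in both cell libraries and ENSMUST00000156618.8_5 is low in shDis3l2 cells and Vector EVs.

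The make-up of these 7 pieces needs no scaling between libraries. It was alike in the 2 cell libraries, whose sums differed most, and unlike that of the EVs for 4 of the 7. ENSMUST00000099046.3_2 made up 24.1% of the 7 in shNS cells (95% exact binomial interval 18.5% to 31.0%, on counts rounded to whole numbers) and 24.7% in shDis3l2 cells, against 7.65% to 10.5% in EVs. ENSMUST00000099683.1_1 made up 26.3% (20.4% to 33.2%) and 27.3% in cells and 10.7% to 18.6% in EVs. The other 2 went the opposite way. ENSMUST00000099683.1_3 made up 20.3% (14.8% to 26.6%) and 20.8% in cells and 32.1% to 35.6% in EVs. ENSMUST00000099047.3_2 made up 13.4% (8.99% to 19.1%) and 12.9% in cells and 25.0% to 32.2% in EVs. For each of these 4 pieces the interval in shNS cells held the value of shDis3l2 cells and no EV value. For ENSMUST00000099683.1_4 it did not: the share was 1.50% (0.322% to 4.48%) in shNS cells, 5.23% in shDis3l2 cells and 1.20% to 2.56% in EVs. The shares of ENSMUST00000099684.3_0 and ENSMUST00000099049.3_2 did not part cells from EVs. Whether reads of one library were assigned to another was not tested, so the 193 counts of shNS cells, and every ratio of these pieces to them, are given as the table lists them.

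**Figure D3:**
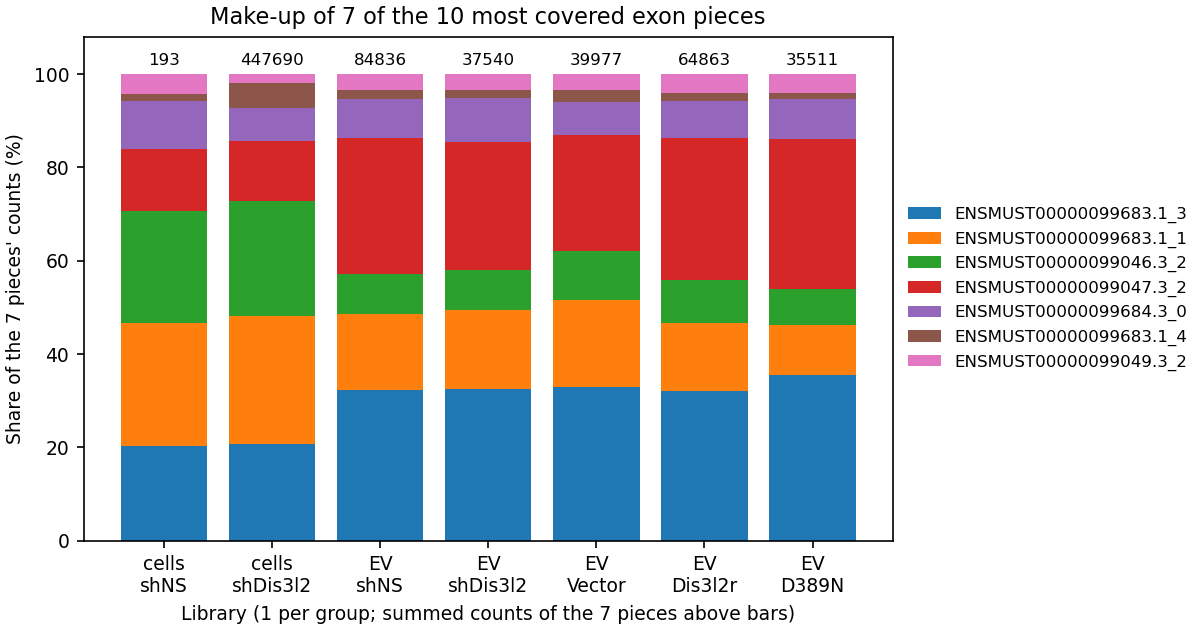
Make-up (vertical axis, % of their summed counts) of 7 of the 10 most covered exon pieces in each library, with the summed counts above the bars. The bars of the 2 cell libraries are alike, with 24.1% and 24.7% from ENSMUST00000099046.3_2, and in the 5 EV libraries that piece takes 7.65% to 10.5%.

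The remaining 3 of the 10 largest pieces had other profiles. ENSMUST00000177796.1, the only exon piece of its transcript, had 0 counts in both cell libraries. In EVs it had 4255 counts with shNS, 2869 with shDis3l2, 3629 with Vector, 2931 with Dis3l2r and 5450 with D389N. With 0 taken as up to 3 counts in the cell library, its level was at least 99.3-fold higher in EVs than in cells with shNS and at least 1829-fold higher with shDis3l2. ENSMUST00000110452.1 had 81.4 and 153.0 counts in cells and 1094 to 1768 in EVs. As CPM these are 2981 and 275 in cells with shNS and shDis3l2, and 3974 to 4988 in EVs.

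ENSMUST00000156618.8_5 stood apart from both. It is 1 of 19 exon pieces of its transcript and held 99.7% of that transcript's exon counts, in counts that were whole within the tolerance. It had 325 counts in shNS cells but 6 in shDis3l2 cells, and in EVs 2020 with shNS, 2881 with shDis3l2, 92.0 with Vector, 2173 with Dis3l2r and 4181 with D389N. Vector EVs were thus far below the 4 other EV libraries. The low values are in 1 cell and 1 EV library, both with shDis3l2, but shDis3l2 EVs without a vector were not low.

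Patterns over all 300 pieces were then counted. In 23 pieces from 15 transcripts, shDis3l2 cells were at least 2-fold above every other library on both the exon scale and the scale of all rows. These are 7.67% of the members, beside 0.373% of exon pieces with at least 20 counts and 2.00% of the next 300. Counts in shDis3l2 cells helped to choose them, so this share is a description. They included 14 pieces at 0 in shNS cells, none was the only exon piece of its transcript, and counts of all 23 were not whole. Together they made up 56.5% of exon-piece counts in shDis3l2 cells, 0.479% in shNS cells and 4.08% to 8.42% in EVs. A further 118 pieces were higher in all 5 EV libraries than in both cell libraries, and 13 were higher in both cell libraries than in all 5 EV libraries. The remaining 146 showed none of these orders. The log2 CPM of the 300 pieces correlated more between EV libraries (Pearson's r 0.66 to 0.81 over 10 pairs) than between a cell and an EV library (-0.01 to 0.33 over 10 pairs) or between the 2 cell libraries (0.27). The median piece had 7.97 and 16.3 counts in the cell libraries against 103 to 139 in EVs, so counting error lowers correlations with cells more. These correlations are across pieces that share transcripts and libraries, and are given as descriptions.

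Comparing EVs with whole cells asks which RNAs vesicles carry out of proportion to the cell. With 5 EV against 2 cell libraries, 118 of the 300 pieces (39.3%) lay above both cell libraries in all EV libraries, beside 8.35% of the 14995 exon pieces with at least 20 counts and 46.7% of the 300 pieces ranked next. The median sum was 33.0 counts among those 14995 pieces and 702 among the members. A piece at 0 in any EV library cannot hold this order, so these sets are of unequal depth. In shNS cells 47 of the 118 were at 0, and 1 count there is 36.6 CPM. Of the 118, 95 held under all 4 scalings. When scaled to all rows the count was 243, and without the shNS cell library it was 249. With a count of 0 taken as 3 counts, the largest ratio of group means was that of ENSMUST00000177796.1, at 0 in both cell libraries and at least 217-fold higher in EVs. ENSMUST00000091756.1 followed at 42.5-fold. It had 1.03 counts in shNS cells and 8.15 in shDis3l2 cells, against 450 with shNS, 304 with shDis3l2, 283 with Vector, 555 with Dis3l2r and 164 with D389N in EVs. Its level in cells thus rests on few counts.

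The opposite order was held by 13 pieces (4.33%), beside 0.287% of exon pieces with at least 20 counts and 0.667% of the next 300. Depth is unequal here too, since this order needs a count in shNS cells, where 6227 exon pieces had any. Of these 13, 11 were the only exon piece of their transcript. The IDs of 11 lay between ENSMUST00000082392.1 and ENSMUST00000082421.1, and the other 2 were ENSMUST00000047910.14_0 and ENSMUST00000098104.9_0. The largest ratio of group means was that of ENSMUST00000098104.9_0, with 424 and 148 counts in cells and 8, 9, 0, 4 and 18 in EVs with shNS, shDis3l2, Vector, Dis3l2r and D389N. ENSMUST00000082411.1 had 155 and 217 counts in cells and 0 to 17 in EVs. ENSMUST00000082409.1 had 609 and 999 in cells and 12 to 104 in EVs, and ENSMUST00000082402.1 had 783 and 1277 in cells and 56.0 to 135 in EVs. In each of these 4 pieces the raw count was higher in cells, and 5 of the 13 kept the order under all 4 scalings. The count of pieces was 43 without the shNS cell library, 68 without the shDis3l2 cell library, 5 when scaled to all rows and 21 under TMM.

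In pairs of single libraries, a piece was counted as higher or lower where both libraries together gave at least 20 counts, the levels differed by a factor of at least 2, and there was a 95% exact interval of the ratio that excluded 1. Between EVs and cells with shNS, 97 of 293 measured members (33.1%) were higher in EVs, beside 3.92% of all measured exon pieces and 9.02% of the next 300. Another 58 (19.8%) were lower, beside 10.2% and 18.0%. In 2075 of the 3160 exon pieces measured 1 side was at 0, beside 63 of the 293 members. With 0 taken as 3 counts in shNS cells, a piece with few EV counts could not reach the factor of 2. These shares thus compare pieces of unequal depth. The split was 124 to 44 without the 10 largest pieces, 206 to 21 under TMM and 281 to 6 when scaled to all rows. Under all 4, 97 higher and 6 lower held. A scaling moves all log2 ratios of a comparison by the same amount. All 3 further scalings moved these ratios up, so the 97 could not fail to hold. The members' median log2 ratio was 0.43, beside -0.67 for all exon pieces. The largest rise after ENSMUST00000177796.1 was that of ENSMUST00000099047.3_2, with a log2 ratio of 6.06 (95% interval 5.50 to 6.67). The largest falls were ENSMUST00000098104.9_0 at -9.56 (-10.79 to -8.57) and ENSMUST00000082411.1 at -9.53 (-11.82 to -7.95).

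With shDis3l2, 251 of 298 members (84.2%) were higher in EVs than in cells, beside 92.6% of all exon pieces, and 42 (14.1%) were lower, beside 3.71%. A share of higher pieces near or under the background says nothing particular of the members. Nor does the share of lower ones: the 7 pieces that filled the cell library are among them, and 15 of the 42 would not have reached the lowest member sum without the counts of that library. The splits were 217 to 47 without the 10 largest pieces, 173 to 52 under TMM and 251 to 41 when scaled to all rows, and 173 higher and 41 lower held under all 4. The median log2 ratio was 4.23, beside 3.94 for all exon pieces. ENSMUST00000156618.8_5, with 2881 counts in EVs and 6 in cells, had a log2 ratio of 9.84 (8.72 to 11.29). With shNS its log2 ratio was -1.20 on the exon scale and 3.55 when scaled to all rows. The largest falls with shDis3l2 were those of ENSMUST00000179839.7_1 and ENSMUST00000179272.1_1. The first had 0 counts in EVs and 682 in cells, at least 119-fold lower. The second had 0 and 556 counts, at least 97.0-fold lower. Among transcripts with 2 or more members, the log2 ratios of the highest and lowest piece differed by a median of 1.87 over 33 transcripts here and of 1.58 over 30 with shNS, a distance that scaling leaves as it is.

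**Figure D4:**
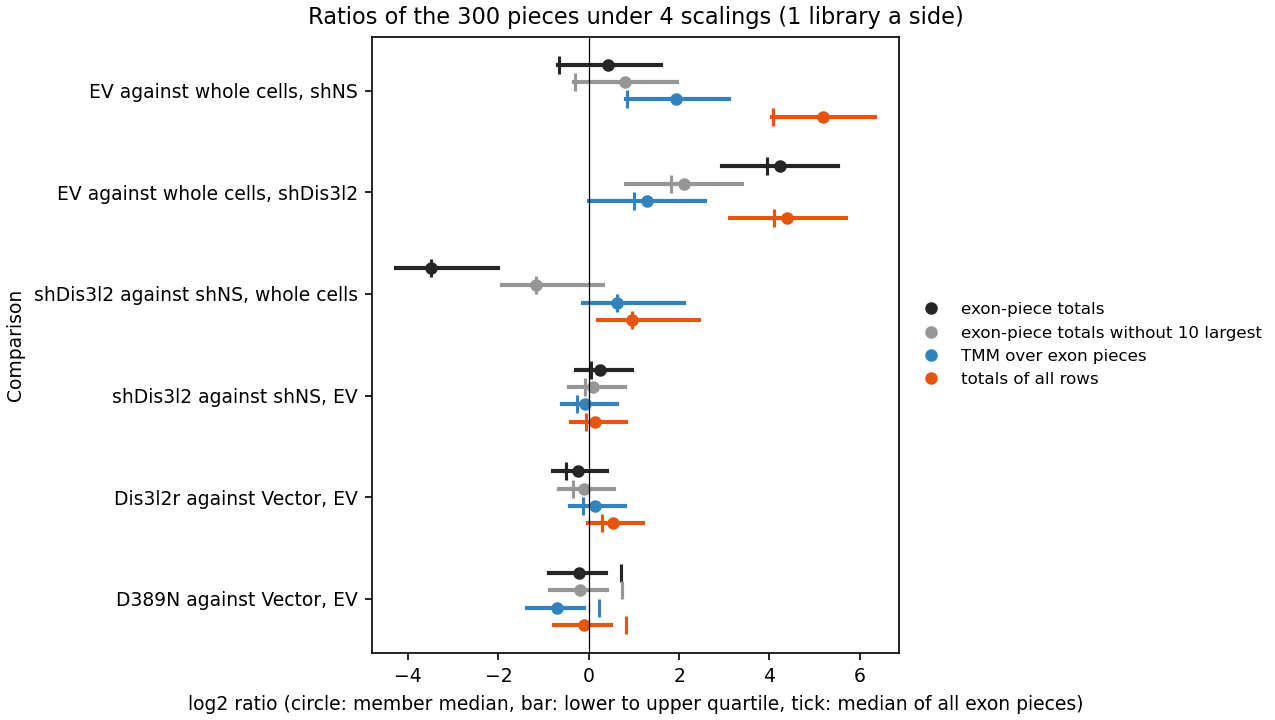
Log2 ratios (horizontal axis) of the 300 pieces in 6 comparisons of 1 library a side, under 4 scalings: circles are the members' medians, bars run from their lower to their upper quartile and ticks the medians of all exon pieces. The median of the shDis3l2 against shNS comparison in whole cells moves from -3.50 to 0.96 with the scaling, and those of the 3 comparisons between EV libraries move less.

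Reads on introns of the same transcripts gave a comparison of cells with EVs that no scaling between libraries enters. The intron share is the share of a transcript's exon and intron counts that lies on its intron rows. Of the 246 member transcripts 158 had an intron row, and 132 had at least 20 counts of each kind and a count in every library. In 64 of them (48.5%) the intron share was higher in both cell libraries than in all 5 EV libraries, beside 16.7% of all 6216 transcripts measured alike and 16.0% of the 6084 that are not member transcripts. In 9 (6.82%) it was lower in both cell libraries, beside 2.78% of all. The median intron share was 54.1% and 58.5% in the cell libraries with shNS and shDis3l2, and in EVs 15.4% with shNS, 16.3% with shDis3l2, 16.9% with Vector, 18.3% with Dis3l2r and 19.1% with D389N. Members were chosen for high exon counts, and the sum takes in 5 EV and 2 cell libraries, so both their low intron share and its order between EVs and cells are in part set by that choice. The shares are given as descriptions, and nothing is read from the difference to other transcripts.

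Without the shNS cell library the count of transcripts with a higher intron share in cells was 88 of 137 (64.2%, beside 25.8% of other transcripts), and without the shDis3l2 cell library 84 of 128 (65.6%, beside 25.7%). The opposite order was then held by 19 (13.9%, beside 6.12%) and by 19 (14.8%, beside 21.2%). ENSMUST00000034966.8, the transcript with 5 member pieces, had 408202 and 521264 intron counts in the cell libraries and 243 to 324 in EVs. Its intron share was 99.98% and 99.97% in cells and 18.8% to 32.5% in EVs. ENSMUST00000042235.14 had an intron share of 35.4% and 18.8% in cells and 0.769% to 4.18% in EVs. Both had separate groups of values, but the cell values of the first are set by an intron row far larger than its exons. Which RNA genes lie in these introns was not tested. ENSMUST00000099684.3 had the opposite order, with 38.2% and 34.6% in cells and 61.8% to 68.9% in EVs.

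**Figure D5:**
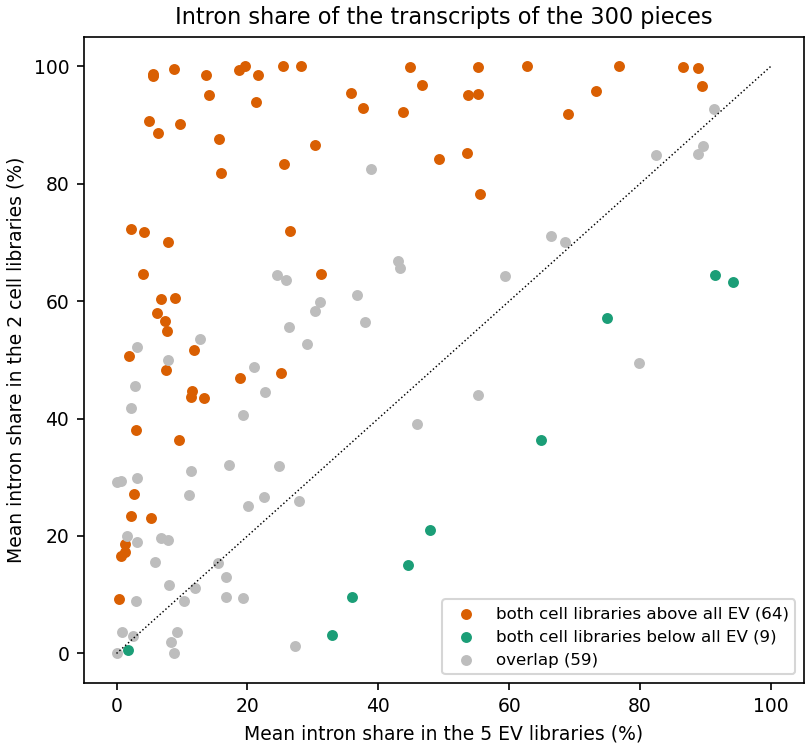
Mean intron share (%) of 132 transcripts of the 300 pieces in the 5 EV libraries (horizontal axis) and the 2 cell libraries (vertical axis), 1 point a transcript, with a dotted line of equal shares. Both cell libraries lie above all EV libraries in 64 transcripts and below them in 9.

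The knockdown comparison in whole cells turned direction with the scaling. On the exon scale, 33 of 174 measured members (19.0%) were higher in shDis3l2 than in shNS cells, beside 11.9% of all measured exon pieces and 16.3% of the next 300. Another 135 (77.6%) were lower, beside 72.7% and 79.6%. The split was 36 to 92 without the 10 largest pieces, but 70 to 14 under TMM and 85 to 11 when scaled to all rows. Under all 4, 33 were higher and 11 lower. All 3 further scalings moved these ratios up, so the 33 could not fail to hold. Counts in shDis3l2 cells helped to choose the members, so the number of rises is in part set by that choice. ENSMUST00000099051.10_2, for example, had 395 counts in shDis3l2 cells and 0 in every other library. The median log2 ratio was -3.50 for the members and for all exon pieces, and 0.96 for both when scaled to all rows. The 174 measured members are among the 377 exon pieces measured here. The background shares and median are thus not independent of the members, and a scaling shifts both medians alike.

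ENSMUST00000099683.1_4 had the largest rise, from 2.91 to 23411 counts, a log2 ratio of 8.63 (7.04 to 10.86). ENSMUST00000099683.1_1 had a log2 ratio of 6.88 (6.48 to 7.30). The largest falls were ENSMUST00000156618.8_5, from 325 to 6 counts, at -10.11 (-11.56 to -8.97), and ENSMUST00000108353.8_0, from 40 counts to 1, at -9.67 (-15.01 to -7.11). These 4 kept their direction under all 4 scalings, which for the rises follows from the upward shifts.

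Of 295 measured members, 66 (22.4%) were higher with shDis3l2 than with shNS, beside 31.6% of all measured exon pieces, and 20 (6.78%) were lower, beside 30.4%, in the knockdown comparison of EVs. The median log2 ratio was 0.25, beside 0.06 for all exon pieces. The split was 53 to 31 without the 10 largest pieces, 54 to 27 when scaled to all rows and 39 to 44 under TMM, and 39 higher and 20 lower held under all 4. Members have more counts than most exon pieces measured, so the shares are not of equal precision.

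ENSMUST00000032998.12_4 had 10.1 counts with shNS and 150 with shDis3l2, a log2 ratio of 4.31 (3.41 to 5.42). ENSMUST00000049572.14_0 had 20.4 and 161 counts and a log2 ratio of 3.41 (2.76 to 4.18). The largest falls were ENSMUST00000179272.1_1, from 40.9 counts to 0, at least 10.2-fold lower, and ENSMUST00000105372.7_0, from 75.0 to 7 counts, with a log2 ratio of -3.00 (-4.36 to -1.88). The log2 ratios of the highest and lowest member of a transcript differed by a median of 0.98 over 31 transcripts. The cell and EV comparisons have no library in common. On the exon scale, 169 members were measured in both. Of these, 27 (16.0%) were lower in cells and higher in EVs, beside 20.3% of all 286 exon pieces measured in both. Another 9 (5.33%) were higher in cells and lower in EVs, beside 3.85%. The 169 members are among the 286 pieces, so the background shares partly count the members themselves. A further 1 was higher in both and 4 were lower in both. Under all 4 scalings, 1 of the 27 and 9 of the 9 passed the same rule. The 3 further scalings raised every cell ratio and lowered every EV ratio, so the 9 could not fail to pass. Counts of the 27 and 9 became 16 and 14 without the 10 largest pieces, 2 and 20 under TMM, and 2 and 11 on all rows. The more frequent order thus turned under TMM and on all rows, but not without the 10 largest pieces.

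The transgene comparisons share the Vector library. With Dis3l2r, 26 of 295 measured members (8.81%) were higher than with Vector, beside 22.3% of all measured exon pieces, and 58 (19.7%) were lower, beside 37.5%. The split turned with the scaling: it was 34 to 48 without the 10 largest pieces, 55 to 27 under TMM and 92 to 12 when scaled to all rows, with 26 higher and 12 lower under all 4. The median log2 ratio was -0.25, beside -0.50 for all exon pieces. With D389N, 26 of 290 (8.97%) were higher, beside 43.9%, and 64 (22.1%) were lower, beside 25.6%. There the split was 26 to 63, 17 to 101 and 34 to 57 in the same order of scalings, and 17 higher and 57 lower held under all 4. The median was -0.22, beside 0.71 for all exon pieces. Among the next 300, 22.0% were higher and 22.7% lower with D389N. The D389N library had counts on 11653 exon pieces, against 20080 to 24547 in the other EV libraries. Of the 6054 exon pieces measured against Vector, 2446 were at 0 on 1 side. Whether these values come from the library or from the variant was not tested.

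The same 2 pieces rose most against Vector with either transgene. ENSMUST00000120532.8_3 had 2 counts with Vector, 92.0 with Dis3l2r and 273 with D389N, log2 ratios of 5.47 (3.58 to 8.54) and 7.19 (5.32 to 10.24). ENSMUST00000156618.8_5 had log2 ratios of 4.51 (4.21 to 4.83) and 5.60 (5.31 to 5.92). Both comparisons use the same low value of the Vector library and are not independent. The largest falls with Dis3l2r were ENSMUST00000133802.5_2, from 114 counts to 0, at least 39.4-fold lower, and ENSMUST00000126562.7_2, from 86.7 counts to 0, at least 30.0-fold lower. With D389N they were ENSMUST00000092163.8_1, from 75.0 counts to 1, at -6.13 (-11.45 to -3.61), and ENSMUST00000033310.8_11, from 39.5 counts to 1, at -5.21 (-10.53 to -2.63).

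The 5 EV libraries can also be read by the activity of Dis3l2 that their labels imply: shNS and Dis3l2r with it, and shDis3l2, Vector and D389N without it. In 60 members (20.0%) all 3 libraries without active Dis3l2 were higher than both with it, beside 6.55% of exon pieces with at least 20 counts and 23.3% of the next 300. The opposite order was held by 28 members (9.33%), beside 7.83% of exon pieces with at least 20 counts and 2.67% of the next 300. The median sum was 33.0 counts among pieces with at least 20 and 702 among the members, so these sets are of unequal depth. Under all 4 scalings, 13 of the 60 and 28 of the 28 held. All 3 further scalings raised both libraries with active Dis3l2 relative to all 3 without it, so the 28 could not fail to hold. When scaled to all rows the counts were 20 and 72, and under TMM 17 and 63, so which order was the more frequent turned with the scaling. The 60 became 103 without the shNS EV library and 96 without D389N, and the 28 became 74 without Dis3l2r, 63 without shDis3l2 and 48 without shNS.

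Among the pieces that were higher without active Dis3l2, ENSMUST00000032998.12_4 had the largest ratio of group means, a log2 ratio of 4.57. It had 10.1 counts with shNS and 4.04 with Dis3l2r, against 150 with shDis3l2, 83.9 with Vector and 164 with D389N. In cells it had 31.3 counts with shNS and 20.4 with shDis3l2. ENSMUST00000108428.7_3 followed at 1.90, with 45.9 and 53.3 counts against 156, 133 and 178. Both kept this order under all 4 scalings, and both had counts that were not whole.

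Among the pieces that were lower, ENSMUST00000179272.1_1 had the largest ratio of group means, with active Dis3l2 over without it, of at least 4.41-fold with the count of 0 taken as 3 counts. It had 40.9 counts with shNS and 71.2 with Dis3l2r, against 0 with shDis3l2, 26.9 with Vector and 3.63 with D389N. ENSMUST00000177601.1_4 had 14.3 and 12.7 counts against 0 in all 3 libraries without active Dis3l2, at least 3.73-fold. Both had far more counts in shDis3l2 cells, 556 and 441, and in shNS cells they had 2.39 and 0. Of the 28 pieces, counts of 27 were not whole.

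A last description, chosen after the values were seen, concerns pieces in which a single EV library stood apart from the 4 others by at least 4-fold. There were 23 such members (7.67%), and in each of them that library was the lowest. Such a low library was found in 16.0% of the next 300 and in 2.41% of exon pieces with at least 20 counts. In no member was an EV library 4-fold above the other 4, beside 0.333% of the next 300 and 25.6% of exon pieces with at least 20 counts. Values under 3 counts were set to 3 counts on the lower side, so a low library needs enough counts in all the others. The median sum was 33.0 counts among pieces with at least 20, 252 among the next 300 and 702 among the members. These shares therefore compare pieces of unequal depth. The Vector library was the low one in 8 members (2.67%, beside 2.00% of the next 300) and D389N in 10 (3.33%, beside 5.33%), while shNS was in 1 (0.333%, beside 4.67%), shDis3l2 in 2 (0.667%, beside 1.67%) and Dis3l2r in 2 (0.667%, beside 2.33%). In the 8 members low in Vector, counts ranged from 2 to 92.0 with Vector, and in shDis3l2 cells from 0 to 12.9. They included ENSMUST00000156618.8_5, ENSMUST00000120532.8_3 and ENSMUST00000108353.8_0, which had 240.0 counts in EVs with shNS, 279 with shDis3l2, 43.0 with Vector, 242 with Dis3l2r and 528 with D389N. In 6 of the 8 the piece held over 90% of its transcript's exon counts. The 10 members low in D389N included ENSMUST00000082392.1, ENSMUST00000082414.1 and ENSMUST00000082408.1, which are among the 13 pieces that were highest in cells. The D389N library also had counts on the fewest exon pieces, 11653.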

How the data were processed

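The authors deposited 1 table of estimated counts for 580839 rows and 7 libraries, not scaled between libraries. Cutadapt, UMI-tools, Novoalign and Salmon and the mouse builds GRCm38 and mm10 are named, per the submitters' processing notes. Their order, their versions and any deduplication were not given in the sources used here. Molecules carried a random sequence of 12 nt and were amplified for 15 cycles, per the labels' protocols.

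Rows named as exons were ranked by their summed counts, and the first 300 were kept. The members and lists were chosen with earlier results of these data known. Pieces named in the text are the 10 largest, those beside rank 300, the transcripts with most counts or pieces, and the 2 largest ratios each way in a comparison; other names were chosen after their values were seen. Ratios were computed in Python 3.11.15 with scipy 1.17.1, with exact conditional binomial 95% intervals on rounded counts, a minimum of 20 counts and a ratio of 2. TMM factors came from edgeR 4.0.16. The counting rule was tested on simulated data. The simulation drew counts for shDis3l2 and shNS EVs with counting error only, so it does not cover cell libraries or spread between replicates. Of the transcript IDs, 0 were matched to a symbol, so no gene names or sequences are given.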

Additional observations from a re-analysis of the deposited data

Results flagged for a closer look

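For 4 of the exon pieces named above, the knockdown comparison went in opposite directions in whole cells and in EVs. ENSMUST00000032998.12_4 had a log2 ratio of shDis3l2 to shNS of -4.97 in cells and 4.31 in EVs. For ENSMUST00000120532.8_3 the values were -7.93, a bound with 0 counts in shDis3l2 cells, and 1.27. For ENSMUST00000099683.1_4 they were 8.63 and -1.07, and for ENSMUST00000179272.1_1 they were 3.52 and -3.35, the last a bound with 0 counts in shDis3l2 EVs. These signs held under all 4 scalings, but the sizes did not. For ENSMUST00000099683.1_4 and ENSMUST00000179272.1_1 the signs had to hold, since the 3 further scalings raised every cell ratio and lowered every EV ratio. In the cell comparison, log2 ratios shifted by 4.46 when scaled to all rows and by 4.12 under TMM. On both of these scales the fall of ENSMUST00000032998.12_4 in cells, from 31.3 to 20.4 counts, was less than 2-fold. The rise of ENSMUST00000120532.8_3 in EVs was less than 2-fold under TMM. With 1 library a group, the difference between cells and EVs was not tested.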

How the results depend on the processing

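No paired analysis was possible because each group has 1 library. With 1 library a group, leaving a library out was possible only for the counts over several libraries. Of the values recomputed under another setting, 76 stayed within 1.5 times of the reported count, or within the counting interval of a share, and 41 did not. Scaling to all rows, TMM, no minimum of counts, choice by mean share and leaving out libraries were planned. Leaving the 10 largest pieces out of the total, TMM for the counts without overlap, and the intron share were chosen after seeing the data.

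When scaled to all rows, members higher and lower in EVs than in cells with shNS were 281 and 6, with shDis3l2 against shNS in cells 85 and 11, and with Dis3l2r against Vector 92 and 12. Under TMM those were 206 and 21, 70 and 14, and 55 and 27, with shDis3l2 against shNS in EVs 39 and 44 and with D389N against Vector 17 and 101. Members above both cell libraries in all EV libraries were 243 when scaled to all rows, and those below were 5, or 21 under TMM. Members higher in the 3 EV libraries without active Dis3l2 were 20 and, under TMM, 17, and those lower were 72 and 63. Choice by mean share gave 90 members lower in EVs than in cells with shNS. Leaving the 10 largest pieces out of the total gave 31 lower with shDis3l2 in EVs.

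Leaving out 1 library at a time gave 121 to 249 members above and 13 to 68 below both cell libraries in all EV libraries. It gave 76 to 103 higher and 38 to 74 lower in the libraries without active Dis3l2, and 63 to 88 transcripts with a higher and 9 to 19 with a lower intron share in cells.

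The depth of shNS cells limits every comparison with them: only 174 of 300 members had at least 20 counts over both cell libraries. The shift of all exon pieces with the scaling was up to 4.75 on the log2 scale (EVs against cells with shNS), so a member's direction in such a comparison is known only relative to that shift. Whether counts are of deduplicated molecules is not given in the sources used here, and intervals would be too narrow if they are not.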
